A study of Mus musculus with 24 samples.

Results

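The genes described here are Rest, Rcor1, Rcor2, Rcor3, Kdm1a, Hdac1, Hdac2, Sin3a, Sin3b and Rilpl1. All but Rilpl1 encode REST, the RE1-silencing transcription factor, or corepressor proteins it assembles. These genes were chosen by gene symbol, as 10 of the 17953 genes listed in mouse cells that differ at the huntingtin gene Htt. All 10 were listed in both cell types, embryonic stem cells (mESC) and the neural progenitor cells (NPC) derived from such cells in culture, and all 10 passed the filter on low values in each. RNA was sequenced from 24 libraries: each cell type had 6 Htt genotypes and each genotype 2 libraries. WT cells carried unmodified Htt, and KO cells were labelled as Htt knockout, with no word on the number of alleles lost. The knock-in lines Q20, Q50, Q92 and Q111 are heterozygous, with 1 Htt allele engineered to carry the stated number of CAG repeats, the trinucleotide that encodes polyglutamine and is expanded in Huntington's disease. The titles give 92 repeats for the third line and the growth protocol gives 89. Stem cells of the knock-in series were grown with leukemia inhibitory factor on irradiated mouse embryonic fibroblasts, and the progenitors were kept on laminin with FGF and EGF. Each genotype is known here from 1 line, and nothing in the labels says that the 2 libraries of a genotype came from separate cultures, so p-values measure only the spread between these libraries, which may be technical.

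REST is a zinc finger protein that binds the RE1 element and represses neuronal genes in stem cells, progenitors and non-neuronal tissue. Its N terminus recruits the scaffolds Sin3a or Sin3b and its C terminus recruits the CoREST scaffolds, encoded by Rcor1, Rcor2 and Rcor3. CoREST carries the histone demethylase LSD1, encoded by Kdm1a, and both scaffolds bring in the histone deacetylases Hdac1 and Hdac2. Normal huntingtin has been proposed to hold REST in the cytoplasm of neurons, a link between these genes and Htt. Rilpl1 belongs to the family of Rab-interacting lysosomal protein-like genes, whereas the REST-interacting LIM domain protein that carries the name RILP is encoded by Prickle1.

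The libraries held 58546211 to 81502284 reads in mESC and 48525333 to 118038952 in NPC, as recovered from the deposited values, and the smallest number of reads behind any value of these 10 genes was 244, for Rcor3 in mESC. Values are the deposited scaled CPM (read counts relative to library size) and are called levels below. Each table was scaled on its own, so levels of mESC and NPC are given side by side without a test. The stem cell markers summed to 1980 to 3773 in mESC and the neural progenitor markers to 3075 to 6987 in NPC, as the labels have it. One group stood apart: the Q20 NPC libraries had Pou5f1 levels of 90.1 and 87.4, while the other 10 NPC libraries stood at 0.405 or lower. The Htt level did not follow the KO label throughout. In NPC its level was 100.1 and 94.9 in KO against 137 and 177 in WT, while in mESC the library labelled KO 1 stood at 139, above both WT libraries at 124 and 113, and KO 2 at 68.5.

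Per kilobase of annotated exon, Kdm1a, Rest and Hdac2 led in mESC, with median levels per kb of 64.9, 61.9 and 55.5 over the 12 libraries, followed by Sin3a at 49.8. Rcor3 was the lowest at 0.497 per kb. The ranges of the leading genes overlapped: Rest ran from 37.0 to 116 per kb, Kdm1a from 60.3 to 74.2 and Hdac2 from 39.3 to 72.3, so these neighbours in the order are not separated by their spread. In NPC, Hdac2 came first at 77.1 per kb, then Kdm1a at 51.4 and Rcor2 at 29.97, and Rest fell in the middle of the order at 14.5. Rcor3 was again the lowest, at 1.65 per kb.

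Shares within a library do not depend on its scaling, and they showed the same exchange between cell types. Rest made up 11.9% to 28.7% of the summed level per kb of the 10 genes in mESC, with a median of 18.2%, and 3.59% to 7.56% in NPC, with a median of 5.37%. Both ranges were clear of each other. On the deposited scale the median level of Rest was 447 in mESC and 105 in NPC, a ratio of 4.27, and the highest NPC library at 135 lay under the lowest mESC library at 268. Sin3a and Hdac1 also stood higher in every mESC library than in any NPC library, while Rcor3 and Rilpl1 stood lower in every one.

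Paralogs divided differently in each cell type. Hdac2 held 53.5% to 66.4% of the Hdac1 plus Hdac2 level per kb in mESC and 76.3% to 83.04% in NPC. Sin3a held a median of 67.2% of the Sin3 pair in mESC and 50.1% in NPC, with ranges that overlapped (57.5% to 75.8% and 42.6% to 64.6%). Rcor2, the CoREST scaffold known for its expression in stem cells and neural progenitors, held 85.1% to 91.9% of the Rcor level per kb in every mESC library. In NPC its share ran from 57.4% to 84.8%, and that spread followed genotype, as described below.

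Rest itself was not called in any comparison of genotypes by limma's moderated test with Benjamini-Hochberg adjustment over all genes, which was the test in every comparison. It lies on chr5:77265491-77286432 (GRCm38, plus strand). In mESC its level was 438 and 626 in WT, 583 and 628 in the libraries labelled KO, 365 and 432 in Q20, 351 and 528 in Q50, 429 and 840.3 in Q92, and 268 and 457 in Q111. The 2 libraries of a genotype were up to 1.96 times apart, and no group stood clear of all the others. The library numbered 2 was higher than the library numbered 1 in 6 of 6 genotypes, by a median of 1.47-fold.

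In NPC, Rest stood at 135 and 125 in WT, 105 and 70.0 in KO, 128 and 86.2 in Q20, 80.2 and 119 in Q50, 129 and 88.1 in Q92, and 99.7 and 105 in Q111. Both KO libraries lay under both WT libraries, but the KO libraries were also split in a gene that tracked Rest, as described below. The log2 change was -0.60 (SE 0.29, adjusted p = 0.452 by limma), with a 95% interval from -1.27 to 0.08. On the scale of level plus 1 this is 0.414 to 1.05 of the WT level. The interval includes no change, and the size of any loss is not settled here. In mESC the log2 change between the libraries labelled KO and WT was 0.21 (SE 0.38, adjusted p = 1.00 by limma), and it turned to -0.05 when WT library 1 was left out. The change of the KO effect between cell types was called for 0 of 10 members by limma, where it was for 0.0406% of 12321 genes, and for 0 members by edgeR. At an unadjusted p under 0.05 there was 1 member, beside 680 of the 12321 genes.

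**Figure D1:**
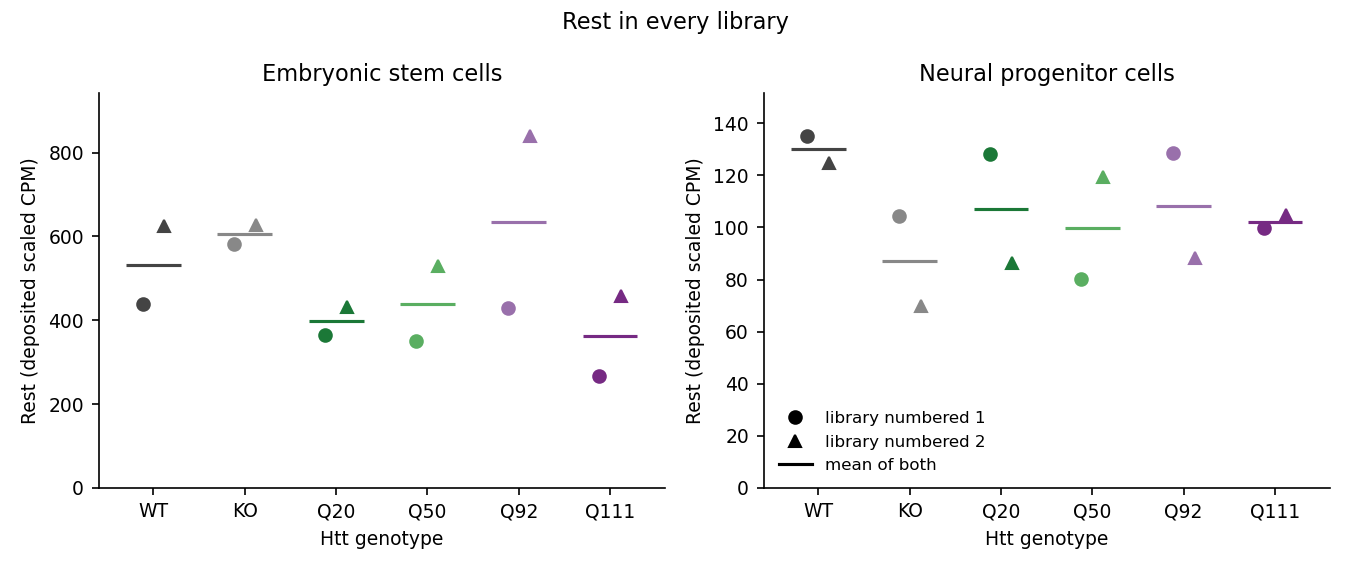
Level of Rest (deposited scaled CPM, axis from 0) in each library by Htt genotype, in embryonic stem cells on the left and neural progenitor cells on the right. Circles and triangles are the libraries numbered 1 and 2 and lines are their means; the triangle lies above the circle in 6 of 6 genotypes in stem cells, and in 2 of 6 in progenitors.

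The genes whose log2 level tracked Rest most closely over the 12 libraries of a cell type were, as a description, Fiz1 (Pearson r = 0.938), Dnajc13 (0.936) and Pcif1 (0.925) among 10442 genes in mESC. In NPC they were Lrrc8d (0.894), 5031439G07Rik (0.834) and Spcs2 (0.8001) among 10565. Of the other members, Sin3a (0.712), Hdac1 (0.695) and Rcor2 (0.663) had the highest values in mESC, and Kdm1a (0.424) in NPC. Sin3b had the most negative value of the members in both, at -0.625 in mESC and -0.402 in NPC. Rilpl1 followed in mESC at -0.414. No test was made of these correlations. These libraries share replicate numbers and scaling, and in mESC Rest differed between the numbers in every genotype.

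In mESC, 0 of 10 members were called in any comparison. The share of all 13916 tested genes called was also small: 0.0144% for KO against WT, 0.323% for Q20 against WT, 0.00719% for Q50 against Q20, 0.00719% for Q92 against Q20, 0.00% for Q111 against Q20, 0.201% for any difference among the 6 genotypes, and 0.00% for a trend with CAG length. At an unadjusted p under 0.05 the members numbered 2 for Q20 against WT, 1 for Q92 against Q20, 1 for any genotype and 0 in the other 4 comparisons, and edgeR's quasi-likelihood test on the recovered reads called 0 in each. Of all 13916 genes, 1716, 747 and 1379 passed that unadjusted threshold for these comparisons in turn, and 358 to 887 in the other 4.

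Sin3b came closest. This scaffold of the Sin3 corepressor stood at 141 and 133 in WT and at 155 and 154 in the libraries labelled KO. It reached 227 and 231 in Q20, 183 and 185 in Q50, 183 and 173 in Q92, and 239 and 215 in Q111. Each of the 8 knock-in libraries lay above each of the 4 libraries labelled WT or KO. The log2 change of Q20 against WT was 0.74 (SE 0.14, adjusted p = 0.0808 by limma). With the replicate number as a block it was called (adjusted p = 0.00806), and so was the opposite change of Hdac2 (-0.51, adjusted p = 0.0432, against 0.347 without the block). The same fit called 10.6% of all genes for Q20 against WT, in place of 0.323%, so 2 of 10 members is not far from its background. Hdac2 levels were 324 and 278 in WT and 251 and 176 in Q20. Of 6 fibroblast and feeder markers 5 were listed in mESC, and they summed to 39.5 to 56.1 in the 8 knock-in libraries and to 6.80 to 14.3 in those labelled WT and KO. Col1a1, Col1a2 and Postn, the first at 7.59 to 17.6 against 0.494 to 1.21, were higher in every knock-in library, whereas Thy1 ranged from 4.37 to 12.3 in the knock-in lines and stood at 9.66 and 11.3 in WT. Their part in the Sin3b result was not tested.

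In NPC the genotypes differed across the transcriptome, and the members must be read against that background. For KO against WT, 0 of 10 members were called by limma, where 1.42% of 13206 genes were, and 0 members by edgeR. At an unadjusted p under 0.05 there were 2 members, beside 1755 of the 13206 genes. Sin3b levels were 149 and 162 in WT and 211 and 214 in KO, a log2 change of 0.45 (SE 0.11, adjusted p = 0.114 by limma). It was called without WT library 2, at 0.51 and an adjusted p of 0.0353, where 11.9% of all genes were called. Kdm1a, the demethylase, read 327 and 309 in WT and 264 and 268 in KO, a log2 change of -0.26 (SE 0.10, adjusted p = 0.282 by limma).

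For Q20 against WT, 0 of 10 members were called by limma against 14.5% of all genes, and 0 by edgeR. At an unadjusted p under 0.05 there were 2 members, beside 3466 of 13206 genes. Without WT library 1, Hdac2 (-0.51, adjusted p = 0.0462) and Rcor1 (-0.88, adjusted p = 0.0494) were called as lower in Q20, with 21.6% of all genes. Without WT library 2, Rcor3 was (-0.76, adjusted p = 0.0422), with 16.9% of all genes. The WT libraries were 278.8 and 365 for Hdac2 and 29.0 and 49.1 for Rcor1, so a single WT library set these calls.

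Rcor2 showed the largest genotype difference of the 10 genes. It lies on chr19:7267325-7275225 (plus strand). In NPC its level was 94.0 and 95.2 in WT, 123 and 78.4 in KO, 98.8 and 112 in Q20, and 136 and 129 in Q92. In Q50 it was 41.4 and 46.1, and in Q111 34.3 and 44.6. The 4 libraries of Q50 and Q111 lay below the other 8, and the Q92 line, between them in repeat number, held the highest values. The log2 change was -1.25 for Q50 against Q20 (SE 0.22, adjusted p = 0.00497 by limma) and -1.41 for Q111 against Q20 (SE 0.22, adjusted p = 0.00241), falling to 0.420 and 0.377 of the Q20 level on the scale of level plus 1. Q92 against Q20 was not called. Both calls held without any 1 of the Q20, Q50 and Q111 libraries, and with WT as the reference and the Q20 libraries left out, where the changes were -1.10 (adjusted p = 0.0416) and -1.25 (adjusted p = 0.0184). In mESC the same lines read 82.7 and 108 for Q50 and 88.6 and 114 for Q111, inside the range of the other genotypes (76.8 to 214).

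The promoter sequences of Rcor2, with the largest change, and Hdac2, called for the trend with repeat number, are shown with the left and right parts of the RE1 element, CAGCACC and GGACAG, searched on both strands. Bases matching a part are in capitals and the rest in lower case, 5′ to 3′, from RefSeq on GRCm38.p6. Each stretch begins 250 bases before the RefSeq start and ends there, or 20 bases past an earlier start in GENCODE M21.
Rcor2, chr19:7267144-7267344, plus strand: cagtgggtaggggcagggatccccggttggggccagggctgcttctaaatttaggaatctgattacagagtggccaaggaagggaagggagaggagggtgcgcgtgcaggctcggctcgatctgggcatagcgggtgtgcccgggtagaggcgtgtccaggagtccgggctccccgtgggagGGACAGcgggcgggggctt
Hdac2, chr10:36974294-36974543, plus strand: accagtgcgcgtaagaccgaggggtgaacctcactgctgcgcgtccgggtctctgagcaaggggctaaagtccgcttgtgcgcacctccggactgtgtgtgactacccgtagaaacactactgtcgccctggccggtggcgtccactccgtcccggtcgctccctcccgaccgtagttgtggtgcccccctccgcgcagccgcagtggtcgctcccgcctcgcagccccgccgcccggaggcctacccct
Rcor2 held GGACAG at the start that GENCODE annotates, and Hdac2 held neither part. Of the 8 members with a RefSeq promoter entry (Rcor1, Rcor2, Rcor3, Kdm1a, Hdac2, Sin3a, Sin3b and Rilpl1), none held CAGCACC and only Rcor2 held GGACAG. Over all 32851 windows of 250 bases, 5.73% held CAGCACC and 18.7% held GGACAG, so such a match describes letters only.

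The other CoREST scaffolds moved less. Rcor1 levels in NPC were 24.3 and 28.3 in Q20, the lowest of the table, 37.0 and 45.0 in Q50, 47.7 and 55.3 in Q92, and 39.3 and 50.4 in Q111. WT stood at 29.0 and 49.1 and KO at 38.9 and 53.7. Both Q92 libraries lay above both Q20 libraries, and the log2 change was 0.94 (SE 0.28, adjusted p = 0.0386 by limma). The call was lost without any 1 of the 4 libraries (adjusted p from 0.0970 to 0.180) and against WT without Q20 (0.43, adjusted p = 0.402). Rcor1 was higher in the library numbered 2 in 6 of 6 genotypes. With the replicate block it was called against Q20 in all 3 lines, at 0.62 in Q50 (adjusted p = 0.0433), 0.94 in Q92 (0.00686) and 0.74 in Q111 (0.0173), and for any genotype (0.0294). That fit called 19.0%, 27.0%, 30.1% and 39.0% of all genes in these 4 comparisons, and same-numbered NPC libraries correlated over 0.1 in 3 of 15 pairs of genotypes.

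Rcor3 levels were 32.6 and 24.2 in WT, 35.2 and 26.4 in KO, 18.8 and 18.8 in Q20, 25.8 and 24.2 in Q50, 19.5 and 20.8 in Q92, and 15.6 and 17.2 in Q111. It was called for any difference among the 6 genotypes (adjusted p = 0.0422 by limma) and in no pair. That call was kept in 3 of 12 fits that each left out 1 library (WT 1, WT 2 or KO 2), and was lost without both Q20 libraries (adjusted p = 0.0923). Within the family, Rcor2 held 57.4% to 60.97% of the Rcor level per kb in the 4 Q50 and Q111 libraries and 68.5% to 84.8% in the other 8. The share of Rcor1 in those 4 libraries was 30.2% to 36.6%, above the 11.6% to 26.1% of the rest. This share rises whenever Rcor2 falls and shows no gain of Rcor1. Its mean level was 41.0 in Q50 and 44.8 in Q111, beside 26.3 in Q20, 39.1 in WT, 46.3 in KO and 51.5 in Q92.

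Hdac2, on chr10:36974544-37001889 (plus strand), rose in the lines with more repeats. Its NPC levels were 248 and 265 in Q20, 268 and 315 in Q50, 403 and 377 in Q92, and 429.6 and 439.9 in Q111. The 4 libraries of Q92 and Q111 lay above the 4 of Q20 and Q50. WT read 278.8 and 365 and KO 325 and 379, between the Q20 and the Q111 levels. The log2 change was 0.60 for Q92 against Q20 (SE 0.16, adjusted p = 0.0240 by limma) and 0.76 for Q111 against Q20 (SE 0.16, adjusted p = 0.00945). The first was lost without any 1 of the 4 libraries (adjusted p from 0.0801 to 0.133). The second was lost without Q20 library 1 (0.0675), Q111 library 1 (0.0532) or Q111 library 2 (0.0609). Against WT without Q20 the changes were 0.29 (adjusted p = 0.334) and 0.45 (adjusted p = 0.125), neither of them called.

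Hdac1, the partner deacetylase, was called in no comparison over all 12 libraries. Its NPC levels were 59.4 and 61.6 in Q20, 44.9 and 55.2 in Q50, 76.2 and 68.5 in Q92 and 70.7 and 74.3 in Q111. Kdm1a had the narrowest range of the 10 genes relative to its level, from 251 to 327 over the 12 NPC libraries. Its 8 libraries of KO, Q50, Q92 and Q111 stood at 251 to 271 and its 4 of WT and Q20 at 309 to 327, without overlap. The log2 changes against Q20 were -0.29, -0.29 and -0.27 for Q50, Q92 and Q111 (adjusted p = 0.0682, 0.0546 and 0.0668 by limma), none of them called. When only the libraries of the compared genotypes were fitted all 3 were called (0.0497, 0.0226 and 0.0251), as was Hdac1 in Q111 (0.26, adjusted p = 0.0480), while 29.7%, 46.6% and 50.8% of all genes were called. Kdm1a was also called in Q92 with median-of-ratios scaling (0.0347). Kdm1a overlaps Luzp1 on the opposite strand, and no source says whether reads were counted by strand.

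Of the Sin3 scaffolds, Sin3b was called in Q111 and Sin3a in no comparison over all 12 libraries. Sin3b levels in NPC were 189 and 182 in Q20, 200.3 and 213 in Q50, 139 and 158 in Q92, and 253 and 237 in Q111. The Q111 libraries held the highest values of all 12 and one Q92 library the lowest. Q111 against Q20 gave a log2 change of 0.40 (SE 0.11, adjusted p = 0.0290 by limma), which was lost without any 1 of the 4 libraries (adjusted p from 0.0940 to 0.158). Against WT without Q20 it was 0.65 (adjusted p = 0.0185). Sin3a ran from 109 in a Q50 library to 187 in a Q92 library. Rilpl1 levels, from 21.8 to 38.2, differed as much within genotypes as between them: Q92 read 21.8 and 38.2.

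**Figure D2:**
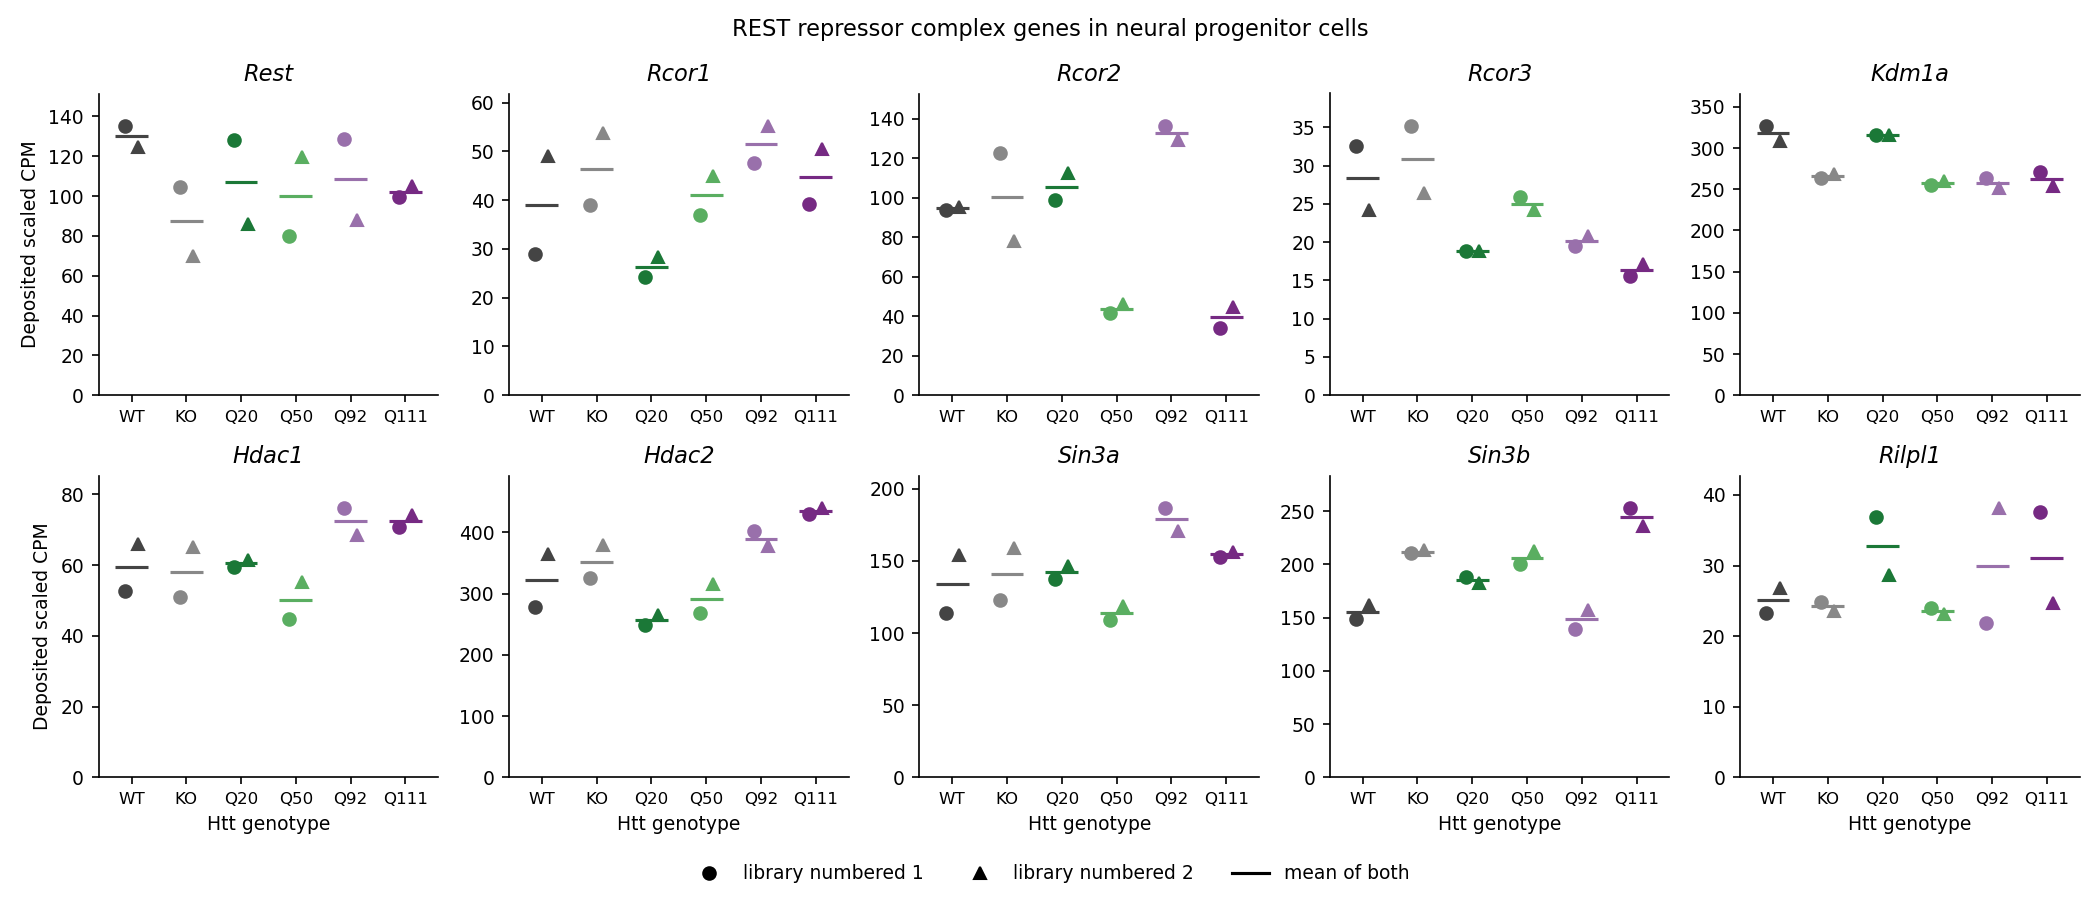
Levels of the 10 genes in neural progenitor cells (deposited scaled CPM, each axis from 0) by Htt genotype, with circles and triangles for the libraries numbered 1 and 2 and lines for their means. Rcor2 is low in the Q50 and Q111 libraries (34.3 to 46.1), and Kdm1a spans only 251 to 327. Hdac2 is higher in Q92 and Q111 (377 to 439.9) than in Q20 and Q50 (248 to 315), while KO library 2 stands at 379.

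In counts, limma called 1 of 10 members for Q50 against Q20 (Rcor2, lower), where 18.8% of all genes were called. It called 2 for Q92 against Q20 (Rcor1 and Hdac2, higher; background 25.8%) and 3 for Q111 against Q20 (Rcor2 lower, Hdac2 and Sin3b higher; background 28.3%). For any difference among the genotypes it called 4 (Rcor2, Sin3b, Hdac2 and Rcor3; background 38.0%). These shares lie near or below the background, so the number of called members is no finding about the group. The 3 comparisons share the Q20 libraries and are not independent. Setting Q20 aside and comparing with WT, which was chosen after seeing the data, left 1 for Q50 (background 4.90%), 0 for Q92 (5.59%), 2 for Q111 (11.5%, Rcor2 and Sin3b) and 2 for any genotype (19.8%). For Q92, 1 member had an unadjusted p under 0.05, beside 3145 of 13206 genes.

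**Figure D3:**
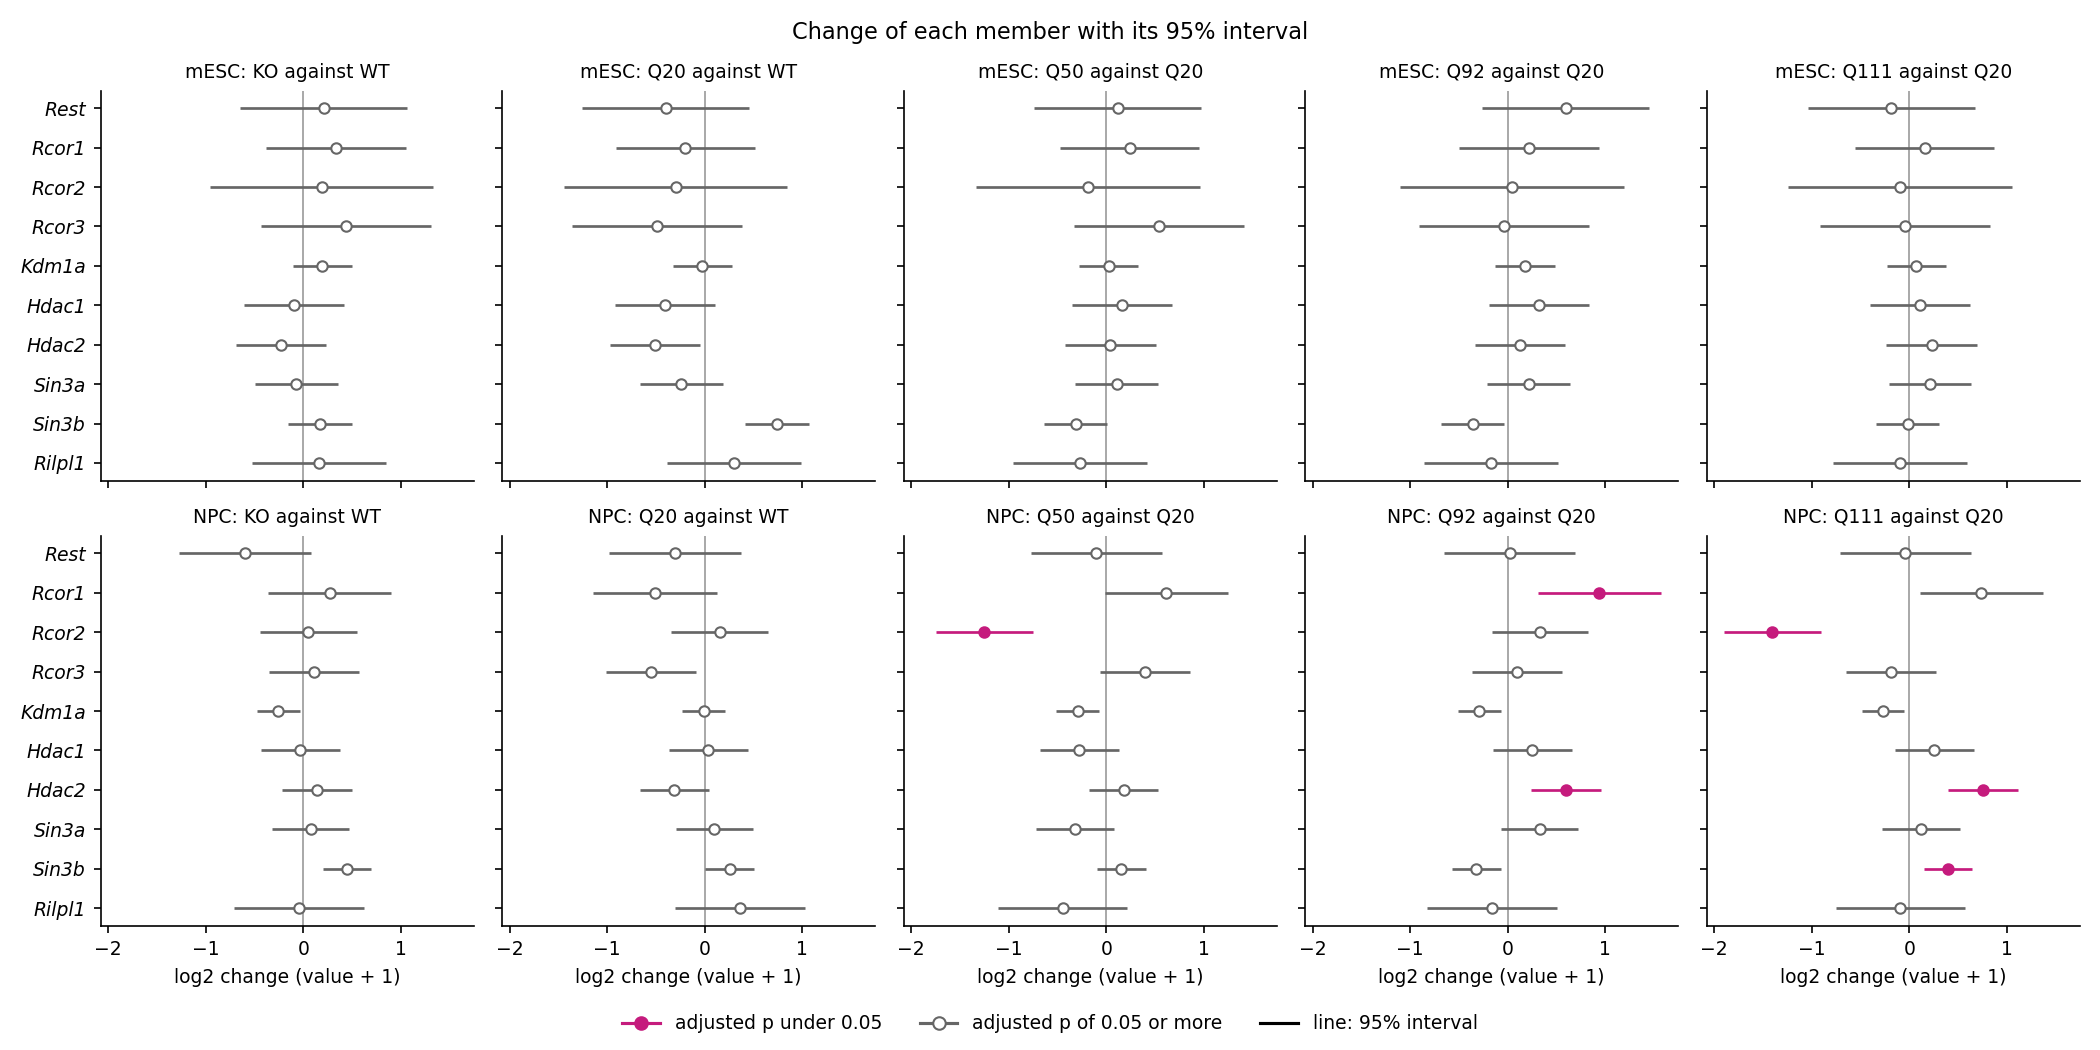
Log2 change of each member (x axis, on level plus 1) with its 95% interval from limma, in stem cells in the upper row and progenitors in the lower row, for 5 comparisons. Filled points passed an adjusted p of 0.05; there are 0 in stem cells, and 1, 2 and 3 in progenitors for Q50, Q92 and Q111 against Q20.

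Across the 8 knock-in libraries of NPC, limma's slope on repeat number, expressed as the log2 change from 20 to 111 repeats, was called for 2 of 10 members, both rising (background 22.0%). They were Hdac2 at 0.78 (SE 0.12, adjusted p = 0.00379) and Rcor1 at 0.77 (SE 0.23, adjusted p = 0.0484). Repeat number differs only between the 4 lines, and with 1 mean value per line 0 of 13206 genes were called (adjusted p = 0.334 for Hdac2 and 0.413 for Rcor1). Rcor1 was also lost with edgeR, with 89 repeats for the third line and without 6 of the 8 libraries in turn, and it fell to 0.27 (adjusted p = 0.613) without Q20. Hdac2 alone was called without Q20, at 0.87 (adjusted p = 0.0270, background 14.2%). Slopes without Q20 were fitted on 50 to 111 repeats but are still expressed over 91 repeats. They reach beyond the fitted lengths, so 0.87 is not a larger observed rise than 0.78. The slopes of NPC and mESC differed for 0 of 10 members by limma (background 4.86%) and 0 by edgeR. At an unadjusted p under 0.05 there were 2 members, beside 2521 of 12321 genes. With the replicate block the slope of Hdac2 differed, by 0.56 (adjusted p = 0.0442), where 8.16% of all genes did.

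Of 32 further cofactors and regulators of REST, all were tested in mESC and none was called by limma or edgeR in the 7 comparisons. At an unadjusted p under 0.05 there were 0 to 3 a comparison, beside 358 to 1716 of 13916 genes. In NPC 31 were tested. None was called for KO against WT (2 at an unadjusted p under 0.05, beside 1755 of 13206 genes, and 0 by edgeR). Further, 3 rose for Q20 against WT, 4 fell for Q50 against Q20, 4 rose and 2 fell for Q92 against Q20, and 2 rose and 3 fell for Q111 against Q20. These are 9.68%, 12.9%, 19.4% and 16.1% of the list, each below the 14.5%, 18.8%, 25.8% and 28.3% of all genes. The medians of the list ranged from -0.09 to 0.11 in these 5 comparisons, beside -0.02 to 0.06 for all genes. Prickle1, which encodes the LIM domain protein that brings REST to the nucleus, stood at 23.3 and 29.3 in Q20 and at 4.95 to 12.3 in the other 10 NPC libraries. It rose for Q20 against WT (1.42, adjusted p = 0.00653 by limma) and fell for Q111 against Q20 (-1.79, adjusted p = 0.00150). Against WT without Q20, the change in Q111 was -0.37 (adjusted p = 0.357).

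With repeat number in NPC, 4 of the 31 cofactors rose and 1 fell, 16.1% beside 22.0% of all genes. Rbbp7, a histone chaperone of the Sin3 and NuRD complexes, stood at 176 and 182 in Q20, 211 and 239.6 in Q50, 359 and 319.6 in Q92 and 373 and 363 in Q111, a rise of 1.083 (SE 0.12, adjusted p = 0.00112 by limma). Smarcc1, a subunit of the BAF chromatin remodelling complex, rose by 0.84 (SE 0.14, adjusted p = 0.00513). WT NPC libraries held Rbbp7 at 126 and 310.3, as wide a span as the whole series of lines. Without Q20 both were still called, at 1.09 (adjusted p = 0.0176) and 0.99 (adjusted p = 0.0336), again expressed over 91 repeats though fitted on 50 to 111.

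Of 32 neuronal genes known as REST targets, 23 were tested in mESC, with none called by limma or edgeR in the 7 comparisons. At an unadjusted p under 0.05 there were 0 to 4 a comparison, beside 358 to 1716 of 13916 genes. In NPC 24 were tested. None was called there for KO against WT by limma or edgeR, and 5 had an unadjusted p under 0.05, beside 1755 of 13206 genes. The median log2 change was -0.15 beside 0.03 for all genes. For Q20 against WT 7 rose and 1 fell, 33.3% of the list beside 14.5% of all genes. Against Q20, 2 rose and 9 fell in Q50, 1 rose and 11 fell in Q92, and 0 rose and 9 fell in Q111, with list medians of -0.46, -0.73 and -0.41. These are 45.8%, 50.0% and 37.5% of the list, beside 18.8%, 25.8% and 28.3% of all genes. These 4 comparisons share the Q20 libraries. Against WT without Q20, the called genes numbered 1 higher and 1 lower in Q50, 2 higher and 0 lower in Q92, and 3 higher and 2 lower in Q111, of 24 genes, where 4.90%, 5.59% and 11.5% of all genes were called.

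Stmn2, a regulator of microtubules in neurons, had the largest changes. It is not silent in the stem cells, where its level was 173 to 391 in the 12 libraries. Its NPC level was 103 and 128 in Q20, 5.51 and 5.24 in Q111, and 0.356 or lower in the other 8 libraries, with 1 Q92 library listed at 0. The log2 change of Q20 against WT was 6.52 (adjusted p = 1.69e-07 by limma) on level plus 1, and that of Q111 against Q20 was -4.18 (adjusted p = 2.29e-06). Against WT without Q20, Q111 was higher by 2.34 (adjusted p = 0.000121), the opposite direction. Changes of Q50 and Q92 against Q20 were -6.63 and -6.85, and against WT without Q20 they were -0.11 and -0.32, neither called (adjusted p = 0.744 and 0.174).

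Tubb3, the neuronal beta tubulin, read 32.6 and 120.5 in Q20 and 6.56 to 20.4 in the other 10 libraries. The log2 changes in Q50, Q92 and Q111 against Q20 were -2.72, -2.95 and -2.61 (adjusted p = 0.0110, 0.00607 and 0.0107 by limma). The Q50 call was lost without either Q50 library (0.0615 and 0.0584) and the Q111 call without Q111 library 2 (0.0715), and against WT without Q20 none of the 3 was called. Its rise in Q20 against WT (1.96, adjusted p = 0.04998) was lost under 7 of 10 alternatives, and without Q20 library 2 it was 1.03 (adjusted p = 0.219). Celsr3, an adhesion receptor of axon guidance, stood at 24.2 and 26.9 in Q20, 8.87 and 7.96 in Q92, and 1.84 to 4.44 in the other 8 libraries. The log2 changes against Q20 were -2.31 in Q50 and -2.37 in Q111 (adjusted p = 0.000241 and 0.000205), and against WT without Q20 it was higher by 0.43 and 0.37, neither called.

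Syt4, a synaptotagmin of secretory vesicles, stood at 7.28 and 4.46 in Q20, 2.83 and 1.52 in Q111 and 1.05 or lower in the other 8. It rose by 2.18 in Q20 against WT (adjusted p = 0.000794 by limma), and its log2 change against Q20 was -2.28 in both Q50 and Q92. Against WT without Q20 these were -0.10 and -0.10, neither called (adjusted p = 0.902 and 0.815). Scn2a, a neuronal sodium channel subunit, departed from that pattern: it read 10.7 and 10.4 in Q20, 10.2 and 10.5 in Q50, 7.08 and 6.73 in Q111, and 1.65 and 1.38 in Q92, with WT at 6.78 and 2.79 and KO at 4.42 and 2.74. The log2 change of Q92 was -2.20 against Q20 (adjusted p = 0.00174 by limma) and -1.11 against WT without Q20, no longer called (adjusted p = 0.113). For the trend with repeat number limma called 1 of 24 target genes (4.17%, beside 22.0% of all genes), and edgeR called 4 (beside 21.7%). The 1 gene called by limma was Chrnb2, a nicotinic receptor subunit, at -1.59 (SE 0.30, adjusted p = 0.00878). It stood at 7.47 and 11.6 in Q20 and at 2.29 and 2.07 in Q111. Without Q20 the slope was as steep, at -1.59, and its adjusted p was 0.0708.

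Markers of several other cell types were also high in the Q20 NPC libraries. The 4 astrocyte markers summed to 499.8 to 543 there and to 8.77 to 207 in the other 10 libraries, and the 4 oligodendrocyte markers to 132 to 147 against 3.88 to 55.0. Of the 7 stem cell markers 4 were listed in NPC and summed to 102 to 104 against 1.38 to 8.05, nearly all of it Pou5f1 and Nanog, the latter at 13.0 and 13.7. Tdgf1 reached only 0.683 and 0.568 in Q20, and Esrrb, at 0.721 and 0.751, lay at the low end of its range of 0.721 to 7.74. Of the other lists, the fibroblast markers summed to 47.0 to 59.4 in Q20, below the 268 to 269 of Q50. The 7 neural progenitor markers summed to 3075 and 3275 in Q20, below the 3323 to 6987 of the other 10 libraries. Of the 6 neuron markers, limma called 3 higher and 1 lower for Q20 against WT, 66.7% beside 14.5% of all genes. Their median log2 change was 1.07, beside -0.02 for all genes. Their summed level was lower in Q20, at 705 and 750 against 1619 and 1249 in WT. Dcx was highest in Q20, at 38.6 and 52.2 against 9.03 or lower, while Map2 was lowest there at 599 and 646 and Rbfox3 stayed at 1.59 or lower in all 12. Their part in the changes of the REST target genes and of the members was not tested, and in bulk RNA more cells of a type and more RNA per cell cannot be told apart.

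Promoters of 2 target genes that moved with Q20 are shown in the same form, since each holds the left part of the RE1 element.
Tubb3, chr8:123411303-123411443, plus strand: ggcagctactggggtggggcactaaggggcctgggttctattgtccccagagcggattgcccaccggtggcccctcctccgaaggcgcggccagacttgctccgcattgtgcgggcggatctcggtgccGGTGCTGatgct
Celsr3, chr9:108825795-108826044, plus strand: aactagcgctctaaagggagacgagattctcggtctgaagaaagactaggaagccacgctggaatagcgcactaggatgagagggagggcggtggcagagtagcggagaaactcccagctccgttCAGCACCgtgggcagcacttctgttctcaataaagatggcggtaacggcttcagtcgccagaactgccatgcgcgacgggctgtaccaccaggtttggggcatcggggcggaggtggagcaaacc
In Celsr3 the match reads CAGCACC on the plus strand. In Tubb3 it lies on the minus strand, past the start that GENCODE annotates. Of the other target genes named above, the windows of Scn2a and Chrnb2 held neither part. RefSeq promoter entries existed for 21 of the 32 target genes, with 31 windows, of which 5 (16.1%) held CAGCACC and 6 (19.4%) held GGACAG, beside 5.73% and 18.7% of all windows.

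**Figure D4:**
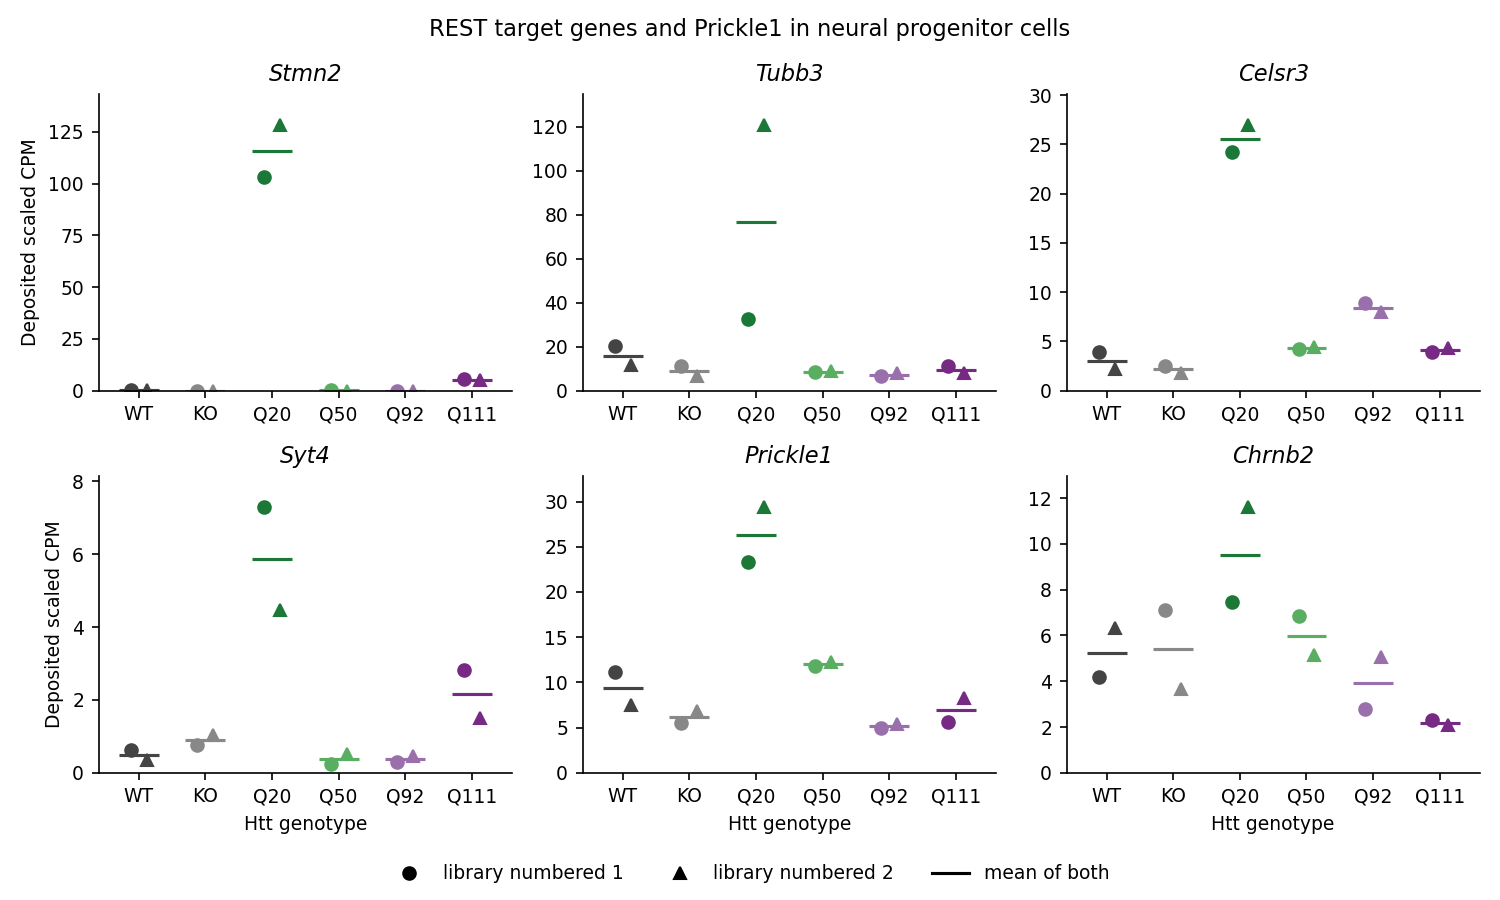
Levels of 5 REST target genes and Prickle1 in neural progenitor cells (deposited scaled CPM, each axis from 0) by Htt genotype, with circles and triangles for the libraries numbered 1 and 2 and lines for their means. Stmn2, Tubb3, Celsr3, Syt4 and Prickle1 are highest in both Q20 libraries, such as 103 and 128 for Stmn2, and Chrnb2 is lowest in Q111 at 2.29 and 2.07.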

How the data were processed

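RNA of 24 libraries was sequenced with paired-end reads, per the labels' protocols. Reads were handled with CASAVA 1.8 and STAR on GRCm38.p6, per the submitters' processing notes; the counter, annotation, strand use and gene filter are not given in the sources used here. The deposited signal is a scaled CPM value per gene and library. Every value was a whole multiple of 1 step per library (100% within 0.1 read), from which reads were recovered. Genes with a level of at least 1 in at least 2 of the 12 libraries of a cell type were tested: 13916 in mESC, 13206 in NPC and 12321 in both. The test was limma 3.58.1 (R 4.3.3) with an intensity trend on log2(level + 1), over all 12 libraries with 1 mean per genotype, adjusted by Benjamini-Hochberg over all tested genes at 0.05; fold changes on this scale understate those of low genes. Intervals are at 95%. The slope used the 8 knock-in libraries. Alternatives were edgeR 4.0.16 on recovered reads, a pseudocount of 0.25, no filter, median-of-ratios scaling, the replicate number as a block, only both groups, 89 repeats, 1 mean value per line and leaving out each library; leaving out the Q20 NPC libraries was added after seeing the data. The functions were tested on simulated counts. The members and gene lists were chosen with earlier results of these data known. Text names all members, Htt, up to 4 called list genes with the largest change per comparison, and the 3 genes of mean level 5 or more most correlated with Rest. Level per kb used the union of GENCODE M21 exons.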

Additional observations from a re-analysis of the deposited data

Results flagged for a closer look

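For a pair of genes around REST the effect of repeat number differed between cell types by the test of the difference itself. They are 1 of 31 cofactors (3.23%) and 1 of 23 target genes (4.35%), where 4.86% of all 12321 genes were called, so their number is no more than the background. Over the 16 knock-in libraries, the log2 change from 20 to 111 repeats of Rbbp7 in NPC exceeded that in mESC by 1.17 (SE 0.22, adjusted p = 0.00848 by limma), and 22 of 23 alternatives kept the call. For Chrnb2 the NPC value minus the mESC value was -1.64 (SE 0.43, adjusted p = 0.0409), and 12 of 23 alternatives lost the call. With 1 mean value per line 0 of 12321 genes were called (adjusted p = 0.311 for Rbbp7 and 0.347 for Chrnb2). The Q20 NPC libraries, which stood apart in markers of several cell types, are the 20-repeat end of both NPC slopes; their part in the difference was not tested.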

How the results depend on the processing

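Settings other than those named here left each count of called members within 1.5 times. With the replicate block the counts became 2 for Q20 against WT in mESC (10.6% of all genes called), 1 for any genotype in mESC (8.67%), 2 for Q50 against Q20 in NPC (19.0%, Rcor2 and Rcor1), 1 for the trend in NPC (15.3%) and 1 for the slope difference (8.16%). Same-numbered libraries moved together in mESC (correlation of library differences from 0.25 to 0.547 over 15 pairs of genotypes) and in 3 of 15 pairs in NPC; with 2 numbers and no label that ties them, the block is a hint from the data, not the design. Fits restricted to the pair of groups compared gave 2, 5 and 6 for Q50, Q92 and Q111 against Q20 in NPC (29.7%, 46.6% and 50.8% of all genes). Median-of-ratios scaling gave 4 for Q92 (adding Sin3b and Kdm1a, lower; 25.4% of all genes) and 1 for the trend in NPC. The trend in NPC also fell to 1 with no filter, with edgeR and with 89 repeats, and to 0 with 1 mean value per line, where no gene of 13206 was called. Without Q20 and against WT, Q92 gave 0, any genotype 2 and the trend 1; the changes of Celsr3 in Q50 (0.43) and Q111 (0.37) and of Stmn2 in Q111 (2.34) turned to higher. Leaving out 1 library at a time gave 0 to 1 for KO against WT (0.810% to 11.9% of all genes), 0 to 2 for Q20 against WT (7.68% to 21.6%), 0 to 0 for Q92 (12.3% to 14.3%), 1 to 2 for Q111 (11.9% to 14.2%), 2 to 7 for any genotype (23.9% to 59.1%) and 1 to 2 for the trend (9.19% to 21.9%), all in NPC; the log2 change of Rest in mESC KO ran from -0.0494 (without WT library 1) to 0.47. The cause was not tested. With 2 libraries a group, the 95% interval of Rest for KO against WT in mESC spans 0.638 to 2.09 times the WT level. The size of that change is therefore poorly known.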
